A study of Mus musculus with 15 samples.

Results

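The small RNAs annotated as tegRNA were sequences that bore this label as their type in the tables of the 6 small RNA libraries from mouse foetal testes at E16.5. Members were the distinct sequences of 18–32 nt with the tegRNA label, and they numbered 453511 of 19175329 distinct sequences of any type (2.37%). The meaning of the label is not given in the sources used here, and none of its rows carried an element name or family, so members were described by their sequence and by their place in the genome. Control libraries were from Tex15+/- foetuses and the others from Tex15-/- foetuses, with 3 libraries per genotype, each made from 6 pooled foetal testes of mice on a mixed B6CBAF1/Crl; C57BL/6N background. The Tex15 null allele was made with CRISPR-Cas9 in exon 5, the line came from 1 founder, and the controls carry 1 copy of the same allele. Whole testes were used, so the germ cells that make piRNAs were mixed with somatic cells, and small RNA tables hold no messenger RNA with which Tex15 or the tissue could be checked.

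PIWI-interacting RNAs (piRNAs) are germline small RNAs of about the size seen here, longer than microRNAs, that guide PIWI proteins to transposon transcripts. Primary piRNAs are cut from long single-stranded precursors and tend to start with U, written as T in the sequenced DNA. Secondary piRNAs arise when a PIWI protein slices a target opposite the tenth base of its guide, which leaves pairs of opposite-strand piRNAs whose 5′ ends overlap by 10 nt and an A at the tenth base (the ping-pong cycle). In mouse foetal gonocytes MILI and MIWI2 bind these RNAs, and TEX15 acts with the nuclear arm of this pathway in transposon methylation. The study asked whether loss of TEX15 alters the piRNAs themselves, and the comparisons below put that question to the tegRNA class.

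Sequences are given 5′ to 3′ with positions in GRCm38 (mm10). The first set holds the members with the highest mean level over the 6 libraries. Capitals mark a T at the first base or an A at the tenth. The first 5 share one 5′ end on the minus strand of chromosome 7 and differ only in where they stop, the next comes from the same region, and the last lies on chromosome 1.
chr7:6616155-6616180(-): Tgtttgctcgttcctgctgaagatgg
chr7:6616156-6616180(-): Tgtttgctcgttcctgctgaagatg
chr7:6616154-6616180(-): Tgtttgctcgttcctgctgaagatggt
chr7:6616157-6616180(-): Tgtttgctcgttcctgctgaagat
chr7:6616153-6616180(-): Tgtttgctcgttcctgctgaagatggtg
chr7:6638901-6638927(-): Tcgatctatctgatactttgaatgttc
chr1:191137558-191137583(-): Tagattgtgtgtgcttatgttgtagt

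The second set holds members that passed the test between genotypes described further on. The chr13 sequence and the 4 lower ones passed the filter on low counts through 1 genotype alone. The first 4 were higher in Tex15-/- and have no A at the tenth base.
chr13:4067466-4067494(+): Tgactgtagtcactgagaaacaggagatc
chr5:7493306-7493335(+): Tcagctggggaacgagaatgaagacaaccc
chr5:7493306-7493334(+): Tcagctggggaacgagaatgaagacaacc
chr6:11822847-11822874(-): Tggtgcgcgcaagaactctgatggcaag
The next 4 were lower in Tex15-/-, and 3 of them have an A at the tenth base. These are too few members to compare the 2 directions on this base, and windows, described further on, did not show the same order.
chr7:19762373-19762401(+): Tgctgtggacaccctgatctcgggatctc
chr3:103245378-103245406(+): TgtggtattAgtgtcagaactctggctct
chr8:110063980-110064007(+): TggatctgtAtgggtgtgcattcacatg
chr2:169236953-169236981(+): TggcgttgcAtctgaaacctcagggtatg

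The libraries held 13781568, 83102785 and 20254816 reads of 18–32 nt in the controls and 16783862, 11184854 and 20873463 in Tex15-/-, so control 2 was the deepest and Tex15-/- 2 the shallowest. Tex15-/- 2 also had the lowest share of reads of 25–30 nt, 24.7%, against 32.3–36.7% in the other 5. Reads carried no molecular identifiers, so the intervals given cover counting error only. Nothing in the labels says that replicate numbers mark a shared litter or day, and p-values measure the spread between these pools of testes.

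tegRNA reads made up a smaller share of the small RNAs in Tex15-/-. They numbered 85277, 515349 and 132887 in the controls and 67642, 32401 and 70165 in Tex15-/-. As a share of reads of 18–32 nt this was 0.619%, 0.620% and 0.656% in the controls and 0.403%, 0.290% and 0.336% in Tex15-/-. The groups did not overlap, with means of 0.632% ± 0.021 and 0.343% ± 0.057 (SD, n = 3 each; ratio 0.543; exact permutation over libraries, two-sided, p = 0.10, which is the lowest a design of 3 against 3 allows). The 95% Wilson intervals of single libraries were narrow beside this gap, for example 0.400–0.406% in Tex15-/- 1 and 0.615–0.623% in control 1. Bulk testis holds germ cells and somatic cells, and whether this went with fewer germ cells or with less tegRNA per germ cell was not tested. The transposon type teRNA took 42.5% ± 1.6 of reads of 18–32 nt in the controls and 40.9% ± 6.1 in Tex15-/- (SD, n = 3 each; ratio 0.962; exact permutation p = 0.90).

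The share was also lower among reads of piRNA length. Of reads of 25–30 nt, tegRNA took 1.65%, 1.58% and 1.69% in the controls and 1.05%, 1.07% and 0.961% in Tex15-/-, means of 1.64% ± 0.057 and 1.03% ± 0.058 (SD, n = 3 each; ratio 0.626; exact permutation p = 0.10). The type named others, which holds reads with no other annotation, had a ratio close to it, 0.588, and the type nrRNA had 0.518. The transposon type teRNA, which held most reads of this length, went from 74.1% to 78.6% (ratio 1.06, exact permutation p = 0.40), with the groups overlapping. Tex15-/- 1 and Tex15-/- 3, at 82.4% and 81.2%, lay above the control range of 72.7–76.2%, and Tex15-/- 2, at 72.1%, lay below it. Reads of genes had a ratio of 0.982, with means of 9.46% ± 0.76 and 9.30% ± 3.25 (SD, n = 3 each). This ratio does not show an unchanged share, since the Tex15-/- libraries fell on both sides of the controls. Tex15-/- 1 and Tex15-/- 3, at 7.18% and 7.67%, lay below the control range of 8.69–10.2%, and Tex15-/- 2 lay above it. The log2 ratio of tegRNA to teRNA reads fell by 0.76 on average, from between -5.59 and -5.43 in the controls to between -6.40 and -6.08 in Tex15-/- (exact permutation p = 0.10, adjusted p = 0.15 over the 3 types that held at least 5% of reads of 25–30 nt). Against others the change was 0.09, with a range of -2.48 to -2.45 in the controls and -2.48 to -2.32 in Tex15-/- (exact permutation p = 0.20).

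Summed to 1 feature and tested beside all other names, the tegRNA type had a log2 fold change of -0.67 (SE 0.20) between Tex15-/- and control in edgeR's quasi-likelihood test (adjusted p = 0.178, unadjusted p = 0.012), and thus did not pass the threshold of an adjusted p under 0.01. DESeq2 gave -0.62 (adjusted p = 0.071). With the counts, library sizes, TMM factors and tested names (795) all taken from 25–30 nt reads, the same value was 0.077 (adjusted p = 0.74, edgeR), the opposite sign. The TMM factors of that fit were 1.25–1.40 in the controls and 0.724–0.799 in Tex15-/-, whereas the share of 25–30 nt reads given above, which uses no such factors, was lower in every Tex15-/- library. Every Tex15-/- library lay below every control, which also held for 16.6% of the 1516 names tested, and 1 name of any type was called (0.0660%).

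In length the tegRNA reads were uniform and of piRNA size. Reads of 25–30 nt made up 93.3%, 93.3% and 93.8% of tegRNA reads in the controls and 93.1%, 91.4% and 92.3% in Tex15-/-. The peak was at 27 nt, with 23.9% ± 0.24 of tegRNA reads in the controls and 24.1% ± 0.81 in Tex15-/- (SD, n = 3 each). At 28 nt and 29 nt the share was lower in every Tex15-/- library than in every control, 19.6% against 20.98% and 13.4% against 14.8%, and at 24 nt, 25 nt and 26 nt it was higher in every one, 2.23% against 1.46%, 8.20% against 7.38% and 20.1% against 19.2% (exact permutation adjusted p = 0.188 over 15 lengths). A single start site on chromosome 7, described below, has reads mostly of 25 nt and 26 nt. It took 1.54% of tegRNA reads in the controls and 4.83% in Tex15-/-. The length shares without this site were not computed, so the shift cannot be read as one of tegRNA at large. tegRNA took less of the reads at each length from 24 nt to 32 nt in Tex15-/-, with ratios of 0.546 to 0.762 (exact permutation adjusted p = 0.15 over 15 lengths).

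Most tegRNA reads began with T, the feature of primary piRNAs. The first base was T in 81.5%, 81.1% and 79.6% of tegRNA reads of 25–30 nt in the controls and in 81.7%, 83.1% and 80.8% in Tex15-/-, and the genotypes overlapped (means 80.7% ± 1.0 and 81.9% ± 1.2, SD, n = 3 each; exact permutation p = 0.40). Within each library tegRNA had more T at the first base than all other reads of the same length, by 9.41 to 12.6 percentage points, with a mean of 10.5 (exact sign-flip permutation over 6 libraries, two-sided p = 0.031, the smallest it can give). Against teRNA alone the gain was 9.54 points and against genes 13.2 points, while against others tegRNA was lower by a mean difference of -2.20 points (same test and p for each).

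An A at the tenth base, the ping-pong feature, was less common in tegRNA than in the transposon reads. It was found in 29.4%, 30.6% and 31.8% of tegRNA reads of 25–30 nt in the controls and in 28.6%, 25.98% and 29.3% in Tex15-/-. Every Tex15-/- value lay below every control, by 2.69 percentage points on average, though the gap between the closest libraries was small (means 30.6% ± 1.2 and 27.9% ± 1.7, SD, n = 3 each; exact permutation p = 0.10). The mean difference was -1.71 points without Tex15-/- 2, -1.46 with each distinct sequence counted once and -4.30 with sequences of at least 2 reads. The difference of tegRNA from other reads of the same length was -9.72 points on average, with a range of -12.5 to -8.24, and from teRNA -14.4 points, whereas tegRNA was above others by 4.40 points and above genes by 9.20 points (exact sign-flip permutation p = 0.031 for each). With each distinct sequence counted once the difference from other reads was -3.01 points. In tegRNA reads without T at the first base an A at the tenth was found in 35.9–46.6%, and in those with T at the first base in 23.96–27.97%, over the 6 libraries. tegRNA thus sat between the transposon reads and the reads without annotation on this feature.

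Few members recurred between libraries. Of the 453511 sequences, 399170 (88.0%) were seen in 1 library only, and they held 56.2% of tegRNA reads, while 1358 (0.299%) were seen in all 6 and held 12.3%. Between 66.1% and 86.7% of the distinct sequences of a library were read once. Single members therefore rarely had the counts for a test, and their places in the genome were used to gather them.

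Each member of 24–32 nt without an ambiguous base, 450842 in all, was matched to the genome with up to 3 mismatches, and 450840 of them had a single best place. These held 99.1–99.6% of tegRNA reads per library. In samples of 20000 sequences, genes and others were likewise placed once in 100%, whereas nrRNA was in 65.6% and teRNA in 43.5%. Of the members matched, 70.7% did so without a mismatch and 24.6% with 1, which lay at the last base in 46.6% of cases. These shares were close to those of genes (70.9%, 22.8% and 47.8%) and of others (72.9%, 23.6% and 45.1%). Masked repeats covered at least 50% of the bases in 30.2% of members and at least 1 base in 56.0%, whereas among the sampled sequences of other types with a single best place at least 50% of the bases were masked in 55.1% of teRNA, 29.2% of nrRNA, 4.29% of others and 3.21% of genes. For teRNA this leaves out the sequences with several best places, which were the majority. Members lay between genes in 63.2% of cases, in introns on the sense strand in 18.9% and on the antisense strand in 11.8%, and in exons in 4.62% (sense) and 1.51% (antisense). Repeat families were not assigned here.

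Among 12 measures of placement, 4 had genotypes that did not overlap, and none could pass 0.05 (exact permutation p = 0.10, adjusted p = 0.30 over 12). Intron antisense reads made up 10.9% ± 0.27 of placed tegRNA reads in the controls and 9.49% ± 0.39 in Tex15-/-. Exon antisense reads made up 1.77% ± 0.26 and 1.30% ± 0.08. Matches with 2 or 3 mismatches made up 2.91% ± 0.12 and 3.80% ± 0.31 (SD, n = 3 each). The fourth measure was the share of the leading region, described next.

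One region stood out by its level. When members were gathered in 50 kb windows, the window chr7:6600000-6649999 held 4795 sequences and 6.36% of the mean tegRNA level, the top 10 windows held 10.7%, the top 100 held 22.8% and the top 1000 held 49.7% of 34327 windows with a read. Nearly every read of this window came from the minus strand, 90.6% started with T and 17.6% had an A at the tenth base. The window was thus richer in T and poorer in A than tegRNA as a whole. However, 1 start site, described below, held 39.0% of its reads pooled over the 6 libraries. The sequences of that site printed above have T at the first base and G at the tenth. The base shares of the window without this site were not computed. It lies between Olfr1350, an olfactory receptor gene 28.6 kb away, and Zim1, an imprinted zinc finger gene 21.3 kb away, and no annotated gene overlaps it.

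The level of the leading window overlapped between genotypes, and that of tegRNA elsewhere did not. In RPM (reads per 1000000 reads of 18–32 nt, without TMM) it had 317, 291 and 245 in the controls and 312, 406 and 280 in Tex15-/-, and the genotypes overlapped (exact permutation p = 0.50). All other placed tegRNA had 5841, 5884 and 6287 RPM in the controls and 3697, 2465 and 3057 in Tex15-/-, a ratio of 0.512 with no overlap (exact permutation p = 0.10). The window therefore took 5.15%, 4.71% and 3.76% of placed tegRNA reads in the controls and 7.78%, 14.1% and 8.39% in Tex15-/- (means 4.54% ± 0.71 and 10.1% ± 3.5, SD, n = 3 each; exact permutation p = 0.10). Tex15-/- 2 had the highest share, and without it the Tex15-/- mean was 8.08%, with the ratio for all other tegRNA at 0.562. Outside genes the ratio of RPM was 0.549, in introns 0.507, in exons 0.614, in masked repeats 0.596 and in unmasked sequence 0.520, with no overlap of genotypes in any of them (exact permutation p = 0.10 each).

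Within this window 1 start site held 39.0% of the reads pooled over the 6 libraries. By library these were 1536 of 4374, 8552 of 24168 and 1545 of 4970 reads in the controls. In Tex15-/- they were 2561 of 5232, 2167 of 4538 and 2817 of 5846. The 5′ end at position 6616180 on the minus strand of chromosome 7 began 403 sequences, among them the first 5 printed above. It had 111, 103 and 76.3 RPM in the controls and 153, 194 and 135 in Tex15-/-. Every Tex15-/- library was above every control (means 96.9 ± 18.3 and 160 ± 30.2, SD, n = 3 each; exact permutation p = 0.10), and without Tex15-/- 2 the Tex15-/- mean was 144. The start site took 1.54% of tegRNA reads in the controls and 4.83% in Tex15-/-. Its reads were mostly 25 nt (33.4% ± 0.79 and 28.6% ± 4.3) and 26 nt (30.7% ± 1.9 and 33.4% ± 0.38) long. Of the next start sites, those at chr7:6638927, chr7:6625438 and chr7:6608218 lie in the same window on the same strand. The first of these had 20.9, 15.2 and 13.3 RPM in the controls and 11.3, 9.30 and 11.8 in Tex15-/-, the opposite order to that of the leading site, again without overlap (exact permutation p = 0.10). The other two sites overlapped between genotypes.

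The 10 members with the highest level did not pass the test between genotypes. Levels here are counts on the same base (CPM) scaled by the TMM factors of all sequences. The 26 nt sequence chr7:6616155-6616180(-) had 28.7, 27.0 and 19.8 CPM in the controls and 39.9, 64.8 and 37.5 in Tex15-/- (log2 fold change 0.91, SE 0.33, edgeR adjusted p = 0.099). The 27 nt form chr7:6616154-6616180(-) had 11.9, 7.88 and 6.14 CPM in the controls and 14.3, 40.1 and 13.6 in Tex15-/- (log2 fold change 1.39, SE 0.44, edgeR adjusted p = 0.053). Without Tex15-/- 2, the highest library for both, these log2 fold changes were 0.61 and 0.69. In both, the Tex15-/- libraries lay above the controls, and the same held for the 25 nt and 24 nt forms, with log2 fold changes of 0.50 and 0.78. Without control 3 the 25 nt form was at 0.30. The 28 nt form, at 0.41, overlapped between genotypes and was at 0.15 without Tex15-/- 2.

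The remaining 5 of the top 10 also overlapped between genotypes. The sequence chr7:6638901-6638927(-) had a log2 fold change of -0.26 (edgeR adjusted p = 0.70; -0.11 without control 1 and -0.44 without control 2), chr7:6602588-6602614(-) of -0.38 and chr7:6616153-6616178(-) of -0.06. The sequence chr1:191137558-191137583(-) had 11.7, 7.75 and 6.04 CPM in the controls and 7.64, 3.31 and 4.43 in Tex15-/- (log2 fold change -0.71, SE 0.40, edgeR adjusted p = 0.30), and its log2 fold change was -1.09 without Tex15-/- 1. The last, chrX:103572929-103572952(-), lies in the microRNA gene Mir421 on its strand. It starts with A, is 24 nt long and carries the substitution C24T against the genome, counted from its 5′ end. Its log2 fold change was -0.19, with -0.49 without Tex15-/- 2 and -0.0061 without Tex15-/- 3.

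Across sequences of all types 73924 were tested, 280 of them tegRNA, and 2517 (3.40%) were called at an adjusted p under 0.01, with 2.84% higher and 0.563% lower in Tex15-/-. A sequence can pass the filter on low counts through 1 genotype alone. Of the 280, 6 were called higher and 4 lower, a share near the background. The tegRNA median was -0.56 and that of all sequences -0.01. Of the 280, 96 (34.3%) were below all controls in every Tex15-/- library, against 15.0% of all sequences, and 16 (5.71%) were above all controls, against 14.2%. The lower position was not particular to tegRNA. In others 44.1% of the sequences tested were below all controls and in nrRNA 54.3%, with medians of -0.79 and -1.08. In teRNA the share was 14.2% and in genes 9.18%. Outside the leading window 91 of 216 tegRNA sequences were below and 11 above, and within it 5 of 64 were below and 5 above. With at least 10 reads required in every library, 81 tegRNA sequences were left, with a median of -0.16 against -0.01 for all types. Of these 81, 2 were called, both higher, against 687 of 28391 of all types. Without any 1 of the 3 control libraries no sequence of any type was called (edgeR). An unadjusted p under 0.05 was then reached by 127 of 400, 84 of 295 and 96 of 313 tegRNA sequences, without control 1, 2 and 3. The share over all types was not computed for these fits. In the main fit 16 of 280 tegRNA sequences reached it as higher and 85 as lower. Of the 73924 of all types, 10042 did as higher and 7601 as lower. DESeq2 with all libraries called 14 of 280 tegRNA sequences and 4444 of 73924 of all types. Without Tex15-/- 2 there were 26 calls among 465 tegRNA sequences and 6982 among 98941 of all types.

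The 6 higher calls came from 4 start sites on 3 chromosomes. The sequence chr13:4067466-4067494(+), in an intron of Akr1c14 (an aldo-keto reductase gene) on the sense strand and masked as repeat over its whole length, had 2, 7 and 1 reads in the controls and 29, 13 and 29 in Tex15-/- (log2 fold change 4.01, SE 0.54, edgeR adjusted p = 0.0012). The 30 nt sequence chr5:7493306-7493335(+), between genes and wholly masked, had 11, 74 and 11 reads in the controls and 57, 46 and 113 in Tex15-/- (log2 fold change 2.53, SE 0.40, edgeR adjusted p = 0.0021). Its 29 nt form chr5:7493306-7493334(+) had 17, 88 and 17 reads against 86, 59 and 82 (log2 fold change 2.23), and a 31 nt form that starts 1 base earlier, chr5:7493305-7493335(+), had 2, 14 and 3 reads against 15, 13 and 36 (3.0). The sequence chr6:11822847-11822874(-), between genes, had 8, 49 and 11 reads in the controls and 81, 14 and 70 in Tex15-/- (log2 fold change 2.44, SE 0.46, edgeR adjusted p = 0.0047). Scaled to depth, every Tex15-/- library was above every control in each of these. The chr13 sequence and the 31 nt form on chr5 passed the filter on low counts through the Tex15-/- libraries alone. The last higher call was a longer form of the chromosome 6 sequence, with a log2 fold change of 2.05.

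The 4 lower calls lay in unmasked sequence and had at most 10 reads in any Tex15-/- library. All 4 passed the filter on low counts through the controls, the group where they are high. None had at least 10 reads in every library, so the stricter filter did not test them. They are described here and not taken as support for a lower level. The sequence chr7:19762373-19762401(+), in an intron of Bcam (a cell adhesion gene) on the antisense strand, had 12, 87 and 29 reads in the controls and 3, 0 and 2 in Tex15-/- (log2 fold change -3.43, SE 0.64, edgeR adjusted p = 0.0046). The sequence chr3:103245378-103245406(+), between genes, had 19, 55 and 15 reads in the controls and 2, 1 and 1 in Tex15-/- (log2 fold change -3.35, SE 0.68, edgeR adjusted p = 0.0070). The sequence chr8:110063980-110064007(+), between genes, had 11, 78 and 20 reads against 3, 0 and 2 (-3.14), and chr2:169236953-169236981(+), in an intron of the lincRNA 9430093N23Rik, had 29, 150 and 50 reads against 10, 0 and 8 (-2.60). The zeros are all in Tex15-/- 2, the shallowest library, where 0 reads allow up to 0.268 RPM (3 counts), a level below every control value of these sequences.

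Gathered by window, tegRNA was lower in Tex15-/- in many of the windows tested when all reads of 18–32 nt set the scale. The test covered 1650 of the 34327 windows with a read, and these 1650 held 57.4% of tegRNA reads. Of them 581 (35.2%) were called at an adjusted p under 0.01, 564 lower (34.2%) and 17 higher (1.03%) in Tex15-/-, with a median log2 fold change of -1.12. In 1071 windows (64.9%) every Tex15-/- library was below every control and in 24 (1.45%) above. Windows were made from tegRNA reads only, so no share over other types stands beside these values. They cannot be read as particular to tegRNA. Over single sequences the types others and nrRNA had medians of -0.79 and -1.08, below the tegRNA median of -0.56. A window too can pass the filter through 1 genotype alone. Of 335 windows with at least 10 reads in every library, 75 were called lower and 4 higher, with a median of -0.79. TMM factors from the tegRNA windows themselves centre the windows by construction, so the median was 0.01, and the 42 calls, 39 higher and 3 lower, are relative to the typical window. With factors from 25–30 nt names it was -0.18, with 31 higher and 8 lower. With 25–30 nt reads as library size and no TMM it was -0.93, with 18 higher and 320 lower, and with total counts and no TMM -1.12, with 17 higher and 474 lower. All 17 higher windows were also called under each of these 4 alternative scalings, and 3 of the 564 lower ones were, where the first of the 4 centres the windows by construction. The other scalings also raised the median or left it nearly in place. Higher calls are thus easily kept and lower calls easily lost, so these counts do not measure how robust either set is.

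Windows were also split by strand use, a choice made after their values had been seen and described here without a test. Among windows with a mean of over 2 RPM, the 65 with 50–60% of reads on their major strand had a median log2 fold change of -1.38, with 0 of them above 0, 38 called lower and 0 called higher. The 46 with over 95% on 1 strand had a median of -0.27, with 15 above 0, 10 called lower and 2 called higher. Of all 273 windows at this depth, 122 (44.7%) were called lower and 4 (1.47%) higher. Windows between these limits had medians of -1.19 (60–80%, 89 windows, 42 called lower and 1 higher) and -1.12 (80–95%, 73 windows, 32 called lower and 1 higher). The gap was smaller over all tested windows, where the median was -1.20 for the 326 with 50–60% on their major strand and -0.86 for the 198 with over 95%.

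Of the 10 windows with the highest level, 4 drew nearly all their reads from 1 strand. Window chr7:6600000-6649999 itself had 315, 276 and 257 CPM in the controls and 288, 469 and 267 in Tex15-/- (log2 fold change 0.27, SE 0.50, edgeR adjusted p = 0.64). Its neighbour chr7:6550000-6599999, on the same strand, had a log2 fold change of -0.35 (edgeR adjusted p = 0.46), which was -0.83 without Tex15-/- 2 (edgeR adjusted p = 0.017), -0.16 without Tex15-/- 1 and -0.15 without Tex15-/- 3. The windows chr10:83350000-83399999 and chr10:83400000-83449999, whose reads came from exons of the gene D10Wsu102e on its own strand, had log2 fold changes of -0.06 and -0.05, and without Tex15-/- 2 of -0.38 and -0.35. All 4 of these one-sided windows overlapped between genotypes. In the last 3 named the overlap came from Tex15-/- 2 alone, since both other Tex15-/- libraries lay below every control. The last 3 named turned positive where factors came from the tegRNA windows or 25–30 nt names, while the first rose to 1.46 and 1.24 under these 2 scalings, without being called, and was -0.027 without Tex15-/- 2.

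The other 6 had reads from both strands and no overlap between genotypes. Window chr3:94550000-94599999 had 48.0, 52.5 and 37.0 CPM in the controls and 25.2, 15.2 and 16.9 in Tex15-/-, with 61.1% of reads having an A at the tenth base (log2 fold change -1.26, SE 0.42, edgeR adjusted p = 0.012). Window chr8:47600000-47649999, split nearly evenly between strands and with 57.1% A at the tenth base, had 52.5, 40.7 and 29.01 CPM in the controls and 20.5, 19.2 and 13.7 in Tex15-/- (log2 fold change -1.19, edgeR adjusted p = 0.016). Neither passed 0.01. Window chr7:19750000-19799999, over Bcam and the transcript Gm45114, had 19.9, 26.6 and 63.7 CPM in the controls and 7.70, 1.76 and 7.53 in Tex15-/- (log2 fold change -2.67, SE 0.50, edgeR adjusted p = 2.0e-04). Window chr11:3150000-3199999, over Drg1 and the antisense transcript Gm12735, had 16.8, 23.4 and 61.7 CPM against 10.9, 2.38 and 15.0 (log2 fold change -1.83, edgeR adjusted p = 0.0040). In the last 2 windows control 3 was the highest library, and without it the value for the chromosome 11 window was -1.08 and not called. The windows chr1:191100000-191149999 and chr4:33100000-33149999 had log2 fold changes of -1.05 and -1.18 and were not called by edgeR (adjusted p = 0.025 and 0.015). DESeq2 called both, as well as the chromosome 3 and chromosome 8 windows (adjusted p = 0.0012 to 0.0050), but not the chromosome 11 window (adjusted p = 0.010). Relative to the typical window, with factors from the tegRNA windows, 5 of the 6 lay between -0.66 and 0.090 and chr7:19750000-19799999 at -1.52, and none was called.

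The windows with the largest decreases held few reads and passed the filter on low counts through the controls alone. Window chr9:16850000-16899999 had 9, 72 and 12 reads in the controls and 1, 0 and 0 in Tex15-/-, and chr16:31450000-31499999 had 9, 46 and 15 against 0, 0 and 1. Window chrX:167300000-167349999 had 12, 101 and 22 reads in the controls and 2, 0 and 1 in Tex15-/-, with 97.1% of its reads in masked repeat and 82.6% with an A at the tenth base. Window chr7:28550000-28599999, in Samd4b, had 15, 95 and 62 reads in the controls and 4, 0 and 2 in Tex15-/- (log2 fold change -3.82, SE 0.64, edgeR adjusted p = 1.1e-04). Each group total of 1 to 3 reads is too low for a fold change to be given.

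Repeats were common among the 17 higher windows, a difference that was not tested. In 12 of them (70.6%) over 50% of reads lay in masked repeat, against 13.5% of the lower windows and 15.5% of those not called, and in 14 of them every Tex15-/- library was above every control. The median share of reads with an A at the tenth base was 39.9% in the 17 higher windows, 29.4% in the 564 lower ones and 27.6% in those not called, also without a test. Window chr13:4050000-4099999, in Akr1c14, had 7, 30 and 7 reads in the controls and 71, 31 and 68 in Tex15-/- (log2 fold change 3.15, SE 0.41, edgeR adjusted p = 1.0e-05). Window chr3:25250000-25299999, between genes, had 4, 18 and 3 reads in the controls and 38, 10 and 41 in Tex15-/- (log2 fold change 3.02). Window chr5:7450000-7499999, 99.5% masked and with 99% of reads on the plus strand, had 4.10, 3.69 and 3.35 CPM in the controls and 14.6, 20.1 and 18.2 in Tex15-/- (log2 fold change 2.25, SE 0.39, edgeR adjusted p = 1.4e-04), and 1 start site held 67.7% of it. Window chr6:11800000-11849999, between genes and 98.3% on the minus strand, had 3.38, 3.48 and 2.58 CPM in the controls and 18.6, 6.72 and 15.5 in Tex15-/- (log2 fold change 2.11). Window chr1:133950000-133999999 had 9, 36 and 2 reads against 49, 15 and 32 (log2 fold change 2.32). In all 5 the genotypes did not overlap. The windows on chr13, chr3 and chr1 passed the filter on low counts through the Tex15-/- libraries, with too few control reads to pass through the controls.

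Pairs with the geometry of the ping-pong cycle were found in both genotypes. The pairs below, from opposite strands, are shown because their 5′ ends overlap by 10 nt. Capitals mark the first 10 bases, which are complementary within a pair.
chr3:103245287-103245315(+): TAACCTTTCGgaaaaattctgtatccagc
chr3:103245270-103245296(-): CGAAAGGTTAttgtgtgtgcgtggatg
chr12:91877086-91877115(+): TATTCAGCCGtcactgtggcaaaacgcctg
chr12:91877068-91877095(-): CGGCTGAATAgagccctcgctcaatagc

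The chromosome 3 pair had 4, 14 and 3 reads for the plus member in the controls and 0, 2 and 0 in Tex15-/-, and 0, 31 and 7 against 1, 0 and 0 for the minus member. The chromosome 12 pair had 7, 20 and 1 reads for the plus member in the controls and 3, 1 and 2 in Tex15-/-, and 3, 14 and 3 against 0, 0 and 2 for the minus member. Both members were seen together in 1 Tex15-/- library for the chromosome 12 pair and in none for the chromosome 3 pair. Overlaps of 10 nt between opposite-strand start sites numbered 107, 648 and 241 in the controls and 63, 5 and 76 in Tex15-/-. Those counts rise with depth, so each was divided by the mean of the counts at 9 nt and 11 nt, which gave 2.14, 1.87 and 2.30 in the controls and 2.03, 2.0 and 2.34 in Tex15-/-. The ratios overlapped (means 2.10 ± 0.21 and 2.12 ± 0.19, SD, n = 3 each; exact permutation p = 0.90), and that of Tex15-/- 2 rests on 5 pairs. Overlaps also became more frequent towards 24 nt in all 6 libraries, so the 10 nt count was a local peak and not the highest count.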

How the data were processed

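Small RNA of 15–40 nt from E16.5 testes was sequenced in 6 libraries. Per the study's methods and processing notes, the authors trimmed adapters with cutadapt 1.8.1, annotated sequences with bowtie 1.2.1.1 on mm10 and deposited, for each sequence, its length, its count of reads without normalisation, and its annotation; a further deposited column holds 1 constant per table, a scaling to mature miRNA reads, and was not used. Rows of a sequence were reduced to 1. Name and family were empty for tegRNA and the class repeated the type, so shares by family and class were not computed and 50 kb windows were used instead. Counts were tested with edgeR 4.0.16 in R 4.3.3 (TMM, filterByExpr at a count of 10 and a summed count of 15, quasi-likelihood test, Benjamini-Hochberg adjustment over all sequences, names or windows, calls at an adjusted p under 0.01). Standard errors are the absolute log2 fold change over the square root of F. Shares were compared by exact permutation tests in scipy 1.17.1. Sequences were matched to GRCm38.p6 (RefSeq) allowing 3 mismatches, with GENCODE vM21 genes and the masked bases of the genome file. For the other types up to 20000 sequences each were drawn from a fixed subset of their distinct sequences, and the whole subset was taken where it held fewer. Named sequences were the 10 with the highest mean CPM and up to 5 called per direction with the largest absolute log2 fold change and groups apart, and windows were named likewise; 1 window is not reported here. On simulated counts for the control against Tex15-/- comparison, calls recovered 51.3% of 4-fold and 96.4% of 8-fold changes over 73924 sequences, 90.8% and 100% over 1516 names, and 93.7% and 98.9% over 1650 windows. DESeq2 1.42.0, other scalings, filters, lengths, the replicate number as a block and leaving out each library were alternatives. The members and lists were chosen with earlier results of these data known, and the windows and their alternatives after the tables had been seen.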

Additional observations from a re-analysis of the deposited data

Results flagged for a closer look

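tegRNA reads longer than 32 nt lie outside the length range of the members and were not used in any comparison above. They made up 5.59%, 4.90% and 4.02% of tegRNA reads in the controls and 7.15%, 8.37% and 7.83% in Tex15-/-, means of 4.84% ± 0.79 and 7.79% ± 0.61 (SD, n = 3 each; exact permutation p = 0.10), with no overlap between genotypes. In RPM (reads per 1000000 reads of 18–32 nt) their level overlapped, with means of 320 and 287 (exact permutation p = 0.40), and 69.1–74.9% of them began with T.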

How the results depend on the processing

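No result of the shares changed sign under any alternative, and the exact permutation test of 3 libraries against 3 cannot go below p = 0.10. The difference in tegRNA share of 18–32 nt reads, -0.289 points, came to -0.772 over distinct sequences, -0.165 with at least 2 reads and -0.608 relative to 21–23 nt reads. The mean differences of tegRNA from other reads of 25–30 nt were 10.1 to 10.7 points for T at the first base and -10.0 to -9.17 for A at the tenth with 1 library left out, where the exact sign-flip permutation over 5 libraries cannot go below p = 0.0625. With each distinct sequence counted once these were 7.48 and -3.01, and with at least 2 reads 15.1 and -13.3. Calls of tegRNA sequences, 10 in the main test, numbered 46 at an adjusted p under 0.05, 5 without TMM, 2 with at least 10 reads in every library and 0 to 26 with 1 library left out. The 46 were 8 higher and 38 lower, and 7833 of 73924 sequences of all types passed this threshold. Without TMM 1169 sequences of all types were called. Called windows, 581 in the main test, numbered 962 at an adjusted p under 0.05, 42 with TMM from the tegRNA windows, 39 with TMM from names of 25–30 nt reads, 338 with 25–30 nt reads as library size, 79 with at least 10 reads in every library and 131 to 733 with 1 library left out. Of the libraries left out, the lowest counts came without control 3 (131), Tex15-/- 3 (157) and control 2 (201). The causes of these changes were not tested.

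Signs turned as follows, where TMM from the tegRNA windows centres the windows by construction. The tegRNA total was 0.077 with 25–30 nt reads only. Sequence chr7:6616153-6616178(-) ranged from -0.21 to 0.13 with 1 library left out. Window chr7:6600000-6649999 ranged from -0.027 to 0.42 with 1 library left out, and was 1.46 with TMM from the tegRNA windows, 1.24 with that from 25–30 nt names and 0.51 with 25–30 nt reads as library size. Window chr7:6550000-6599999 was 0.85 with TMM from the tegRNA windows and 0.64 with that from 25–30 nt names, and -0.83 to -0.15 with 1 library left out. Window chr10:83400000-83449999 was 1.13 and 0.91 under these, 0.18 with 25–30 nt reads as library size, and -0.35 to 0.087 with 1 library left out. Window chr10:83350000-83399999 was 1.12, 0.91 and 0.17, and -0.38 to 0.10. Window chr1:191100000-191149999 was 0.090 with TMM from the tegRNA windows.

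Same-numbered libraries had correlations of -0.04, -0.01 and 0.10 in their deviations from the group means over sequences, and of -0.06, -0.03 and 0.18 over names. Low correlations of this kind cannot exclude that replicate numbers pair the libraries. With the replicate block 10 sequences and 410 windows were called and the tegRNA total was -0.69.

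Depth limits single members, 88.0% of which were seen in 1 library, and the counts of Tex15-/- 2.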
